A study of Anolis carolinensis with 2 samples.

Results

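Gene models that span 200 kb or more of the green anole genome were examined in whole embryos with 38 and with 28 somite pairs. Most of the span of such a gene is intron, the part of the first transcript that splicing removes. RNA polymerase must cross the whole span before the transcript is complete, so a long gene takes longer to transcribe than a compact gene with an mRNA of the same size. In mammals, genes with very long introns are known to include many that code for adhesion and synaptic proteins of neurons.

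A gene model was taken when it was alone at its locus with a single transcript, lay outside the named linkage groups (LG), spanned at least 200 kb and had a transcript of more than 300 and fewer than 9000 bases. The rule uses no expression value, but it was chosen with earlier results of these data known. Of 21085 gene models in the files, 126 spanned 200 kb or more and 54 met every condition. Of the other models of that span, 59 shared a locus or had several transcripts, 11 had transcripts of 9000 bases or more, 1 had a transcript of 300 bases or fewer, and 1 lay on a linkage group. They were set beside 14754 shorter gene models that met every condition but the span.

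RNA was sequenced from 1 whole Anolis carolinensis embryo with 38 somite pairs and 1 with 28, both collected within 1 day of laying and, by the series description, comparable to mouse embryos at 10.5 and 9.5 days of development. Somites are blocks of mesoderm that form in pairs from head to tail as an embryo ages. No value has a replicate error and no p-value was computed: stage, embryo and library cannot be told apart. In whole embryos, fewer cells of a type and less RNA per cell cannot be told apart either. The libraries held 12908609 mapped fragments at 38 somite pairs and 13859416 at 28, as recovered from the deposited FPKM (fragments per kilobase of transcript, scaled to the mapped fragments of the library). The files give identifiers without gene names, so gene functions, and markers of the tissue, were not analysed here. Positions are given 1-based on AnoCar2.0.

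The 54 long genes spanned 201 to 596 kb, with a median of 258 kb, and 5 of them spanned more than 400 kb. Their transcripts had 420 to 8310 bases, with a median of 2592, so the transcript made up only 0.15% to 3.58% of the span. A length divisible by 3 was found in 52 of the 54 transcripts, so most of these are coding lengths.

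The longest model lay on scaffold GL343350.1 (397240 to 993033, 596 kb) and had a transcript of only 915 bases. It had 3.02 FPKM at 38 somite pairs and 5.20 at 28. Next came a pair on chromosome 1, of 579 kb (18653983 to 19233149) and 560 kb (19484270 to 20044025), which lay 251 kb apart with 1 other gene model between them. The first had 2.22 FPKM at 38 somite pairs and 1.32 at 28, and the second had 0.36 and 0.29 FPKM at 38 and 28. The model of 551 kb on scaffold GL343457.1 (116603 to 667863) was the most abundant of the 5 longest, with 7.33 FPKM at 38 somite pairs and 14.1 at 28. The fifth, of 411 kb on chromosome 1 (260499662 to 260910393), had 4.34 and 4.42 FPKM at 38 and 28. Within the 54 genes, rho between span and mean level was 0.05.

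Chromosome 1 held 16 of the 36 long genes on numbered chromosomes (44.4%), against 22.5% of the shorter genes there. The other 18 long genes (33.3%) lay on 18 different unplaced scaffolds. Of the shorter genes, 51.4% lay on unplaced scaffolds. A scaffold can hold no gene longer than itself, and the part of scaffold length in this difference was not tested. Long genes on numbered chromosomes had fewer gene models near them than shorter genes had. The rule kept only models alone at their locus. Of the 126 models of 200 kb or more, 59 were left out for a shared locus or several transcripts. Such a rule can favour sparse stretches among long models, and its part in these counts was not tested. Counting other gene models within 500 kb of either end, the 36 long genes had a median of 7.5 (quartiles 3.75 and 12), against 13 (9 and 18) for 7158 shorter genes and 10 for the 226 shorter genes of 100 to under 200 kb. The mean distance to the flanking models had a median of 208 kb for long genes and 36.6 kb for shorter genes. It was 92.6 kb for genes of 100 to under 200 kb and 54.8 kb for those of 50 to under 100 kb. The most isolated was a gene of 384 kb on chromosome 1 (86744366 to 87128659), with no other model within 500 kb. On the same chromosome, the genes at 260499662 and 261027828 lay 117 kb apart with no model between them.

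Most long genes were transcribed, but few were abundant. At 38 somite pairs 38 of the 54 long genes reached 1 FPKM (70.4%), and at 28 somite pairs 33 did (61.1%). Of shorter genes, weighted so that their transcript lengths fell into 4 classes in the shares of the long genes, 63.0% reached it at 38 and 62.9% at 28. A level of 10 FPKM was reached by 4 long genes at 38 somite pairs (7.41%) and by 9 at 28 (16.7%), against 28.7% and 32.9% of shorter genes of like transcript length at 38 and 28. Genes of 100 to under 200 kb were at 29.3% and 33.8% by this measure, close to those of 10 to under 50 kb at 33.5% and 36.7%. Only the most compact class, under 10 kb, was also low, at 14.5% and 15.6%. On numbered chromosomes alone, 8.33% of long genes reached 10 FPKM at 38 somite pairs against 36.6% of shorter genes, and 16.7% did against 41.3% at 28. With the limit at 150 kb the long genes were at 17.0% and 24.1%, against 29.7% and 34.2%, and with values at 38 scaled to equal medians of well-covered genes 13.0% of long genes reached 10 FPKM at 38, against 31.4%.

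**Figure D1:**
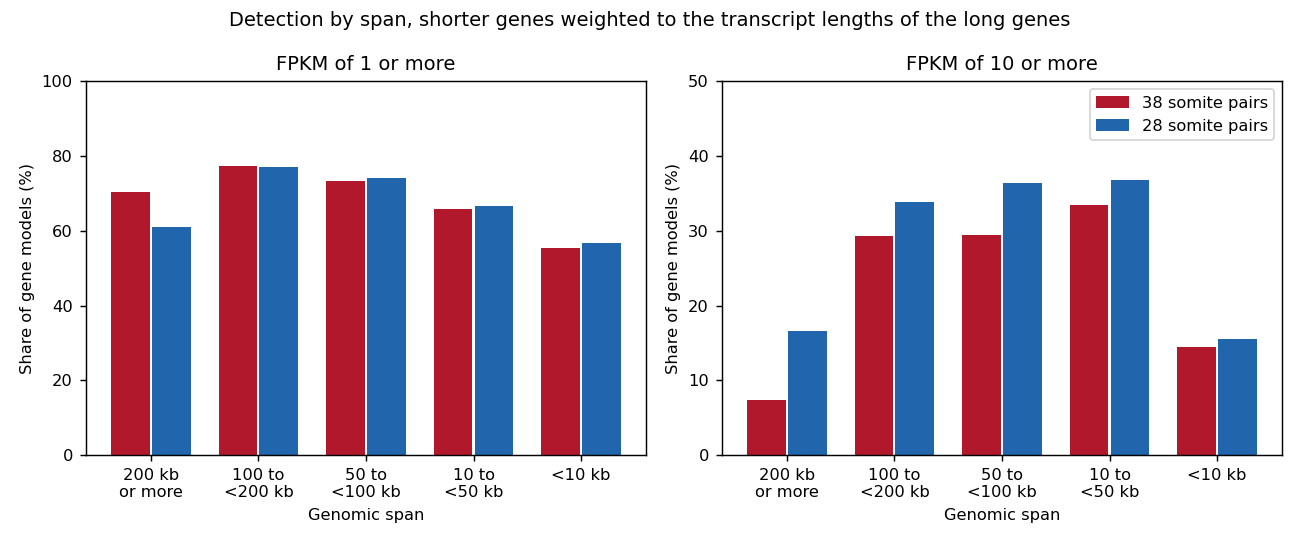
Share of gene models (%, vertical axes) with an FPKM of at least 1 (left) and at least 10 (right) by genomic span, at 38 (red) and 28 (blue) somite pairs; shorter genes are weighted to the transcript lengths of the long genes. The bars at 200 kb or more are at 70.4% and 61.1% on the left and at 7.41% and 16.7% on the right, where the classes from 10 to 200 kb are all between 29.3% and 36.7%. Each bar pools the classes of transcript length.

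The highest of the long genes, on scaffold GL343605.1 (46318 to 313195, transcript of 1947 bases), had 60.4 FPKM at 38 somite pairs and 38.8 at 28. It alone held 21.1% of all long-gene fragments at 38 and 11.9% at 28. A gene of 223 kb on chromosome 1 (31747806 to 31970613) had 24.7 FPKM at 38 and 58.4 at 28, the highest long gene of the earlier embryo. At 38 somite pairs only the gene on GL343605.1 lay clear of the other long genes, and at 28 both did. On chromosome 6, a gene of 278 kb (51428959 to 51707078) with a transcript of 690 bases had 23.8 FPKM at 38 and 25.4 at 28, and one of 294 kb (44062495 to 44356596) had 13.2 and 14.8 FPKM at 38 and 28. These 4 genes were the only long genes at 10 FPKM or more in both embryos.

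The other 5 that reached 10 FPKM did so at 28 somite pairs only. The gene on chromosome 2 (126369587 to 126583358) had 7.30 FPKM at 38 and 15.4 at 28. That on GL343457.1 is given above, and the one on GL343622.1 (46694 to 268686) had 9.73 FPKM at 38 and 13.6 at 28. A gene of 203 kb on chromosome 1 (56682710 to 56885594), with a long transcript of 7269 bases, had 9.13 FPKM at 38 and 12.0 at 28. The last, on chromosome 2 (53650506 to 53852542), had 6.53 and 10.8 FPKM at 38 and 28.

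Expressed genes are here those with an FPKM of 1 or more in either library. The median over 39 expressed long genes was 3.02 FPKM at 38 somite pairs and 4.27 at 28. That over expressed shorter genes of like transcript length was 7.47 FPKM at 38 and 9.13 at 28. Expressed genes of 100 to under 200 kb, weighted alike, were at 6.39 and 7.20 FPKM. Over all genes, expressed or not, the medians were closer, at 2.21 and 2.22 FPKM for long genes and 2.60 and 3.09 for shorter genes of like length. That gap depended on the genes compared. On numbered chromosomes alone the long genes were lower by a log2(FPKM + 1) difference of -0.98 at 38 and -1.20 at 28, against -0.17 and -0.34 with scaffolds included, while without length classes they were higher, by 0.24 and 0.25.

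Over all genes, listed zeros included, the order of the medians differed between classes of transcript length. For transcripts under 1000 bases, the 9 long genes had a median of 3.02 FPKM at 38 somite pairs and 4.84 at 28, while the medians of 6149 shorter genes were 0. Genes of 100 to under 200 kb in that class had 5.78 FPKM at 38 and 5.41 at 28. For those of 1000 to under 2000 bases, the 12 long genes were also above the shorter genes, with medians of 4.24 against 1.78 FPKM at 38 and 3.61 against 1.73 at 28. From 2000 to under 4000 bases the order was the other way, at 1.77 FPKM over 19 long genes against 3.04 at 38, and 0.90 against 3.62 at 28. Over the 14 long genes with transcripts of 4000 bases or more the medians were 1.76 against 5.06 FPKM at 38 and 2.20 against 7.15 at 28. A locus was rarely listed above 0 on fewer than 10 fragments, and 10 fragments at 38 equal 1.34 FPKM in the shortest class but 0.15 in the longest, so zeros are more likely for short transcripts. Among expressed genes the long genes had a lower median than all shorter genes in all 4 classes at both stages. It was 6.93 FPKM at 38 and 6.79 at 28 for 6 long genes under 1000 bases, against 7.35 and 7.68 for shorter genes. For 11 long genes of 1000 to under 2000 bases it was 4.34 and 4.42 FPKM at 38 and 28, against 6.06 and 6.60. Expressed genes of 100 to under 200 kb were close to the long genes in these classes, at 6.99 and 6.77, and 4.58 and 4.89. From 2000 to under 4000 bases they were at 6.36 and 7.53, against 2.03 and 3.75 for long genes. From 4000 bases they were at 7.63 and 10.5, against 2.46 and 4.25.

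**Figure D2:**
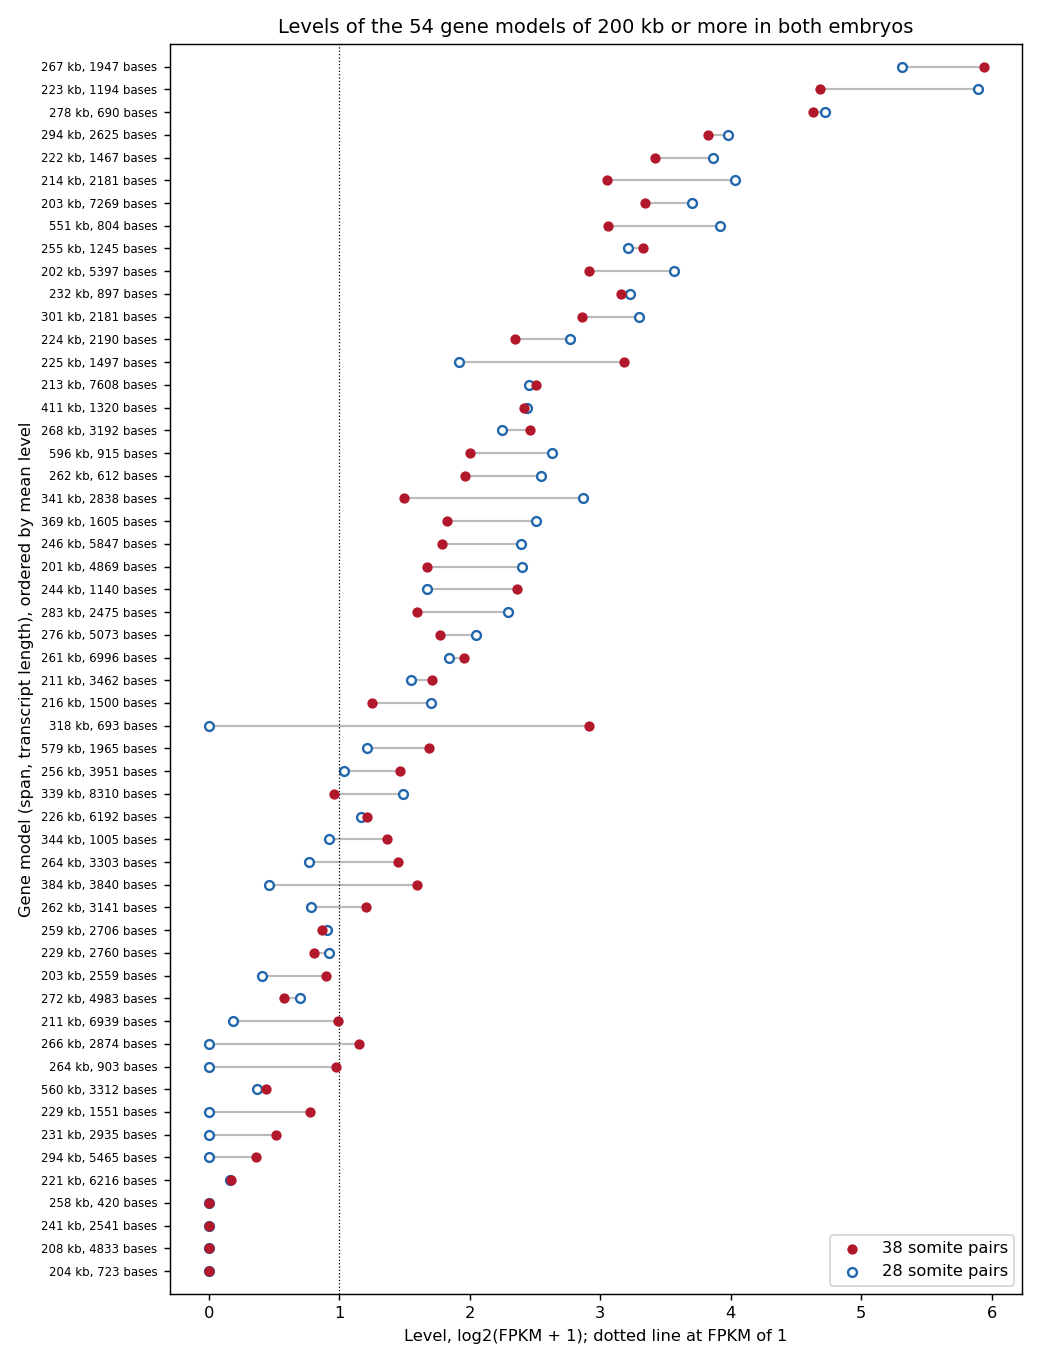
Level of each of the 54 long genes as log2(FPKM + 1) (horizontal axis) at 38 (filled red) and 28 (open blue) somite pairs, ordered by mean level and labelled by span and transcript length. The 4 highest genes lie at 13.2 FPKM or more in both embryos, 4 genes are listed at 0 in both, and 6 genes in the lower part are listed at 0 at 28 somite pairs alone.

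Below 1 FPKM in both libraries were 15 long genes. Of these, 4 were listed at 0 in both, on chromosome 1 (101658828 to 101862565) and on scaffolds GL343381.1, GL343411.1 and GL343791.1. The share at 0 in both was 7.41%, against 19.5% of shorter genes of like transcript length, and 5.93% of those of 100 to under 200 kb. Up to 9 fragments can hide behind such a 0. For the transcript of 4833 bases on GL343791.1, 9 fragments would equal 0.11 FPKM at 38, so its level was at most very low, while for the transcript of 420 bases on GL343381.1 they would equal 1.66 FPKM.

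A further 6 long genes were listed above 0 at 38 somite pairs and at 0 at 28, and none the other way. Of shorter genes of like transcript length, 5.15% were listed at 38 alone and 4.09% at 28 alone, and of those of 100 to under 200 kb 5.34% and 1.86%. The clearest was on chromosome 5 (46731327 to 47048898, 318 kb, transcript of 693 bases), with 6.54 FPKM from 49 fragments at 38 and a listed 0 at 28. Set against 9 fragments at 28, the most that such a 0 was taken to hide, the ratio per mapped fragment would be 5.85 (95% counting interval 2.84 to 13.5). A gene of 266 kb on chromosome 1 (237491289 to 237757445) had 1.23 FPKM from 44 fragments at 38 and a listed 0 at 28, a ratio of 5.25 by the same reckoning (2.53 to 12.2). The other 4 had only 10 to 17 fragments at 38, and with 9 fragments at 28 the intervals of their ratios would include 1.

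The long genes moved in both directions between the stages, with a wide spread. Over the 39 expressed long genes, the later minus the earlier embryo gave a median difference in log2(FPKM + 1) of -0.09 (quartiles -0.59 and 0.42). Its direction turned with the scaling. It was 0.05 once the FPKM of both libraries were brought to the same sum (a log2 shift of 0.14 at 38). With equal medians of well-covered genes (a shift of 0.22) it was 0.12. With the trend over transcript length subtracted it was 0.08, beside -0.004 for shorter genes. That last value is a position relative to other genes and not a direction between the stages. As deposited, the median difference was -0.26 over expressed shorter genes of like transcript length, and -0.18 over all 10783 expressed genes. Of the 39, 17 were higher at 38 somite pairs (43.6%), against 30.1% of shorter genes of like length. However, 6 of the 39 reached 1 FPKM at 38 alone and 1 at 28 alone, which fixed their direction. The part of the filter in the share of 43.6% was not tested. By fragment ratio, with 10 fragments or more in both libraries, 19 of 44 long genes were higher at 38, against 30.3% of shorter genes. The position of the long genes relative to shorter genes was not stable. It was 0.17 as reported, but -0.05 over genes with an FPKM of 1 or more in both libraries, -0.17 over genes with 5 or more in either, -0.04 with the span limit at 150 kb and -0.23 with it at 300 kb.

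By transcript length, the median difference over expressed long genes was -0.34 for 6 genes under 1000 bases, 0.12 for 11 genes of 1000 to under 2000, 0.17 for 13 genes of 2000 to under 4000 and -0.36 for 9 genes of 4000 or more. The corresponding values for shorter genes were -0.07, -0.14, -0.26 and -0.44. By this filter, long genes were above shorter genes in the 3 upper length classes and below them in the lowest. All 13 from 2000 to under 4000 bases reached 1 FPKM at 38, but only 9 did at 28. Some thus passed only through their higher value at 38. Over all classes, with 1 FPKM or more required in both libraries, long genes lay at -0.05 relative to shorter genes.

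**Figure D3:**
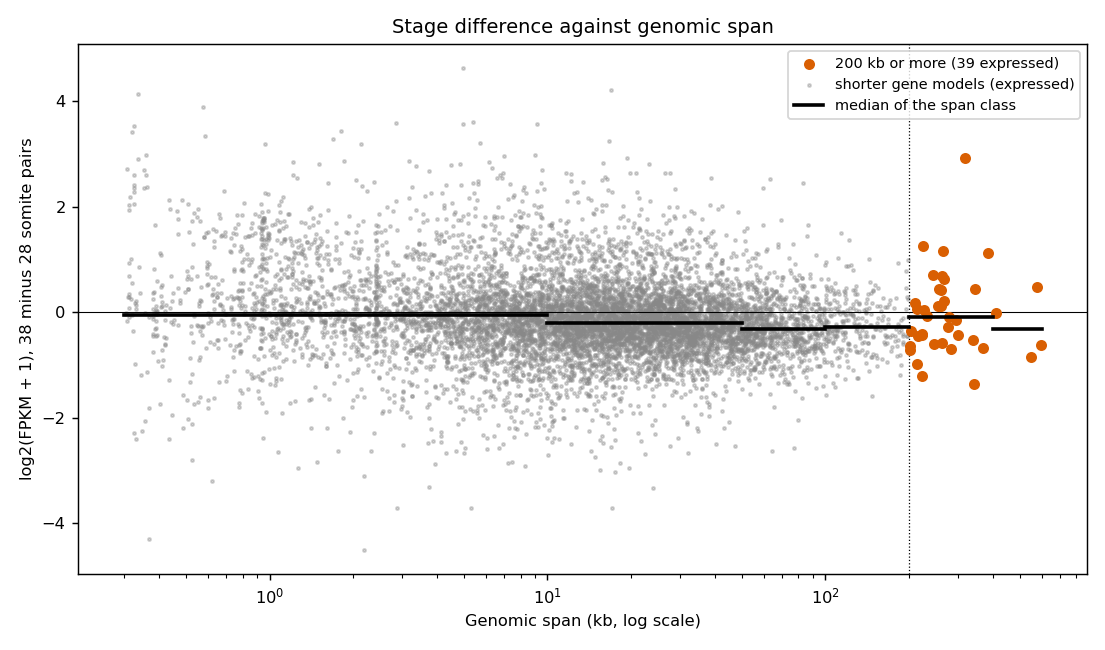
Difference in log2(FPKM + 1), 38 minus 28 somite pairs (vertical axis), against genomic span in kb (log axis) for expressed genes, with long genes in orange, shorter genes in grey and the unweighted median of each span class as a black line. The long genes lie between -1.37 and 2.91 with medians of -0.09 from 200 to under 400 kb and -0.33 from 400 kb, beside -0.28 from 100 to under 200 kb.

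Fewer of the abundant genes than of the low ones were higher at 38 somite pairs, among long and shorter genes alike. Of the 24 long genes with a mean log2(FPKM + 1) of 2 or more, 6 were higher at 38 somite pairs and the median difference was -0.43. Shorter genes of that level and like length had 27.6% higher at 38 and a median of -0.27. Of the 13 with a mean of 1 to under 2, 9 were higher at 38 and the median was 0.17, against 37.3% and -0.17 for shorter genes. The 2 expressed long genes below that level were both higher at 38, but each reached 1 FPKM only there. Of the shorter genes below that level, 50% were higher at 38. Across the 39 expressed long genes, rho between mean level and difference was -0.43. Both values come from the same libraries, and 2 of the 39 genes rest on a listed 0 at 28. Of the 39, 6 passed the expression filter through 38 alone and 1 through 28 alone, which fixed their direction. How much of the trend with level comes from the filter was not tested.

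By a 2-fold difference in FPKM + 1, 4 of the 39 expressed long genes were higher in the later embryo (10.3%) and 2 in the earlier (5.13%). Over all expressed genes the shares were 8.58% and 9.20%. They were 5.06% at 38 and 7.32% at 28 for shorter genes of like transcript length, and 1.64% and 7.21% for those of 100 to under 200 kb. The long-gene shares rest on 4 and 2 genes. Of the 4, 2 were the genes listed at 0 at 28 that are described above. Another, at 86744366 on chromosome 1, also reached 1 FPKM at 38 only. With 1 FPKM or more required in both libraries, 1 of 32 long genes was higher at 38 and 2 at 28. Of all single-transcript genes of the same rule that passed this filter, 2.96% and 4.71% were.

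Fragment numbers gave a finer view. They came out whole within 0.02 fragments in both libraries for 51 of the 54 long genes, and 44 had at least 10 fragments in both. The 95% counting interval of the ratio per mapped fragment lay above 1 for 10 of the 44 and below 1 for 16, and it included 1 for 18. As shares these are 22.7% and 36.4%, beside 17.0% and 39.6% of all 8811 single-transcript loci with 10 fragments in both. With a ratio of at least 2 in addition, 5 long genes were higher at 38 and 3 at 28 (11.4% and 6.82%), beside 5.82% and 8.82%. Intervals cover counting error only and not the variation between embryos.

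Towards 38 somite pairs, the largest ratio was at ENSACAG00000004254 on chromosome 2 (116960712 to 117171516, transcript of 6939 bases). It had 82 fragments at 38 and 12 at 28, or 0.99 and 0.14 FPKM, a ratio of 7.34 (3.98 to 14.8). ENSACAG00000006032, the isolated gene on chromosome 1 named above for its empty surroundings, had 89 fragments at 38 and 18 at 28, a ratio of 5.31 (3.17 to 9.36), at 2.02 and 0.38 FPKM. Both were thus low in the earlier embryo.

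A gene on chromosome 3 (21054817 to 21280014, transcript of 1497 bases) had 8.07 FPKM at 38 somite pairs from 124 fragments and 2.79 at 28 from 46, a ratio of 2.89 (2.05 to 4.15). It was the one gene above 2-fold with more than 5 FPKM at 38 and fragments listed in both libraries. On GL343196.1 (4382572 to 4646243) 67 fragments at 38 stood against 29 at 28, a ratio of 2.48 (1.58 to 3.98). The gene on GL343201.1 (3094781 to 3339110) had 59 and 33 fragments at 38 and 28, a ratio of 1.92 (1.23 to 3.04), and one on chromosome 1 (114201462 to 114463231) had 52 and 31, a ratio of 1.80 (1.13 to 2.91). The narrowest interval above 1 belonged to the most abundant long gene, on GL343605.1, with 1623 fragments at 38 and 1118 at 28 and a ratio of 1.56 (1.44 to 1.68).

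Towards 28 somite pairs, the largest fold was at ENSACAG00000009301 on chromosome 1 (228758968 to 229100355, 341 kb). It had 1.83 FPKM from 67 fragments at 38 and 6.30 FPKM from 245 fragments at 28, 3.41-fold higher at 28 (2.59 to 4.53). ENSACAG00000000476, the abundant gene of chromosome 1 at 31747806, had 372 fragments at 38 and 933 at 28, 2.34-fold higher at 28 (2.07 to 2.64). The gene on chromosome 2 at 126369587 followed, with 185 fragments at 38 and 421 at 28, 2.12-fold higher at 28 (1.78 to 2.53). These 3 were the only long genes at least 2-fold higher at 28 by fragments.

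Next were a gene on GL343341.1 (800048 to 1001543), with 140 fragments at 38 and 291 at 28, 1.94-fold higher at 28 (1.58 to 2.39), and a gene on chromosome 2 (162193301 to 162476649), with 63 and 130, 1.92-fold (1.41 to 2.64). On chromosome 1 (156957465 to 157296935), the longest transcript of the group, with 8310 bases, had 90 fragments at 38 and 185 at 28, 1.92-fold higher at 28 (1.48 to 2.49).

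**Figure D4:**
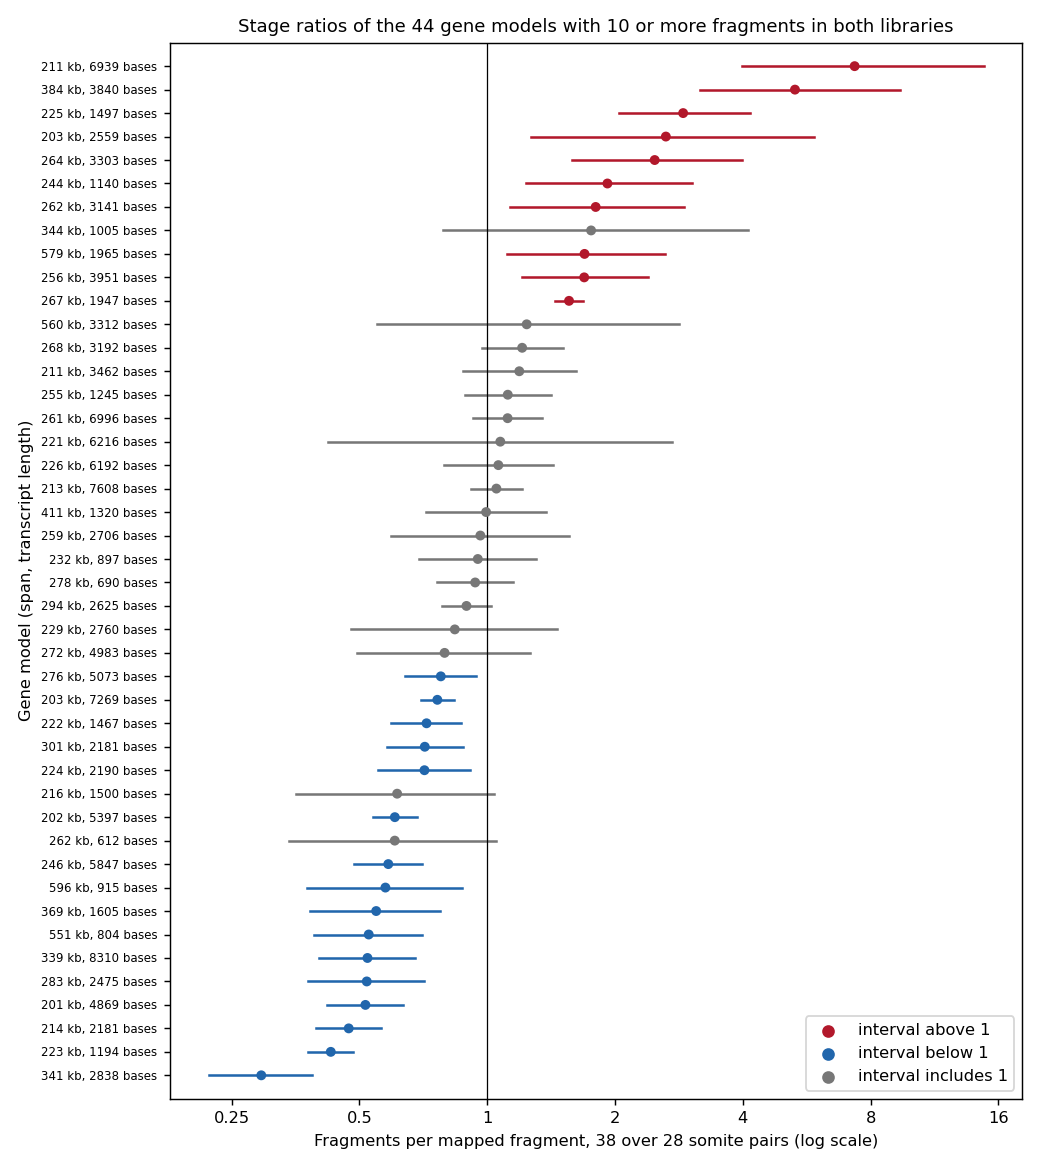
Ratio of fragments per mapped fragment, 38 over 28 somite pairs (log axis), for the 44 long genes that had 10 fragments or more at each stage, with exact 95% counting intervals as bars. The interval is above 1 for 10 genes (red), below 1 for 16 (blue) and includes 1 for 18 (grey).

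The ratios of long genes that lay close together on chromosome 1 were also compared, where overlap of intervals does not show that ratios agree. Of the pair on chromosome 1 that starts at 260499662 and 261027828, the first had 75 fragments at 38 and 81 at 28, a ratio of 0.99 (0.72 to 1.38), and the second had 27 and 11, a ratio of 2.64 (1.27 to 5.89). Those intervals overlapped only from 1.27 to 1.38. The genes of 579 and 560 kb, with 1 model between them, had ratios of 1.70 (1.11 to 2.62) and 1.24 (0.55 to 2.83), whose intervals overlapped more widely. Whether the ratios within a pair differ was not tested.

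Summed over the 54 long genes there were 7701 fragments at 38 and 9392 at 28, or 597 and 678 per 1000000 mapped fragments, a ratio of 0.88 (0.85 to 0.91). For shorter genes the summed ratio was 0.84 (0.84 to 0.84). The 10 long genes with most fragments held 63.5% of the sum at 38 and 66.0% at 28, and without them the ratio was 0.94 (0.90 to 0.99). By transcript length, the summed ratio of long genes was 0.88 (0.77 to 0.99) under 1000 bases, 1.05 (0.99 to 1.10) from 1000 to under 2000, 0.86 (0.80 to 0.91) from 2000 to under 4000 and 0.77 (0.74 to 0.81) from 4000. The shorter genes of those classes were at 0.93, 0.89, 0.79 and 0.70. From 1000 to under 2000 bases, the gene on GL343605.1 alone held 1623 of 2757 fragments at 38 and 1118 of 2827 at 28. Its own ratio was 1.56, and no sum was taken without it alone. Since that is above the ratios of its class (1.05) and of the total (0.88), the remaining long genes together lay below both values. How far below was not computed, so the total does not show that they lay above shorter genes.

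The deposited coverage gave a further readout. Coverage times transcript length, divided by the fragments of the gene, was taken as transcript bases per fragment. The fragments were recovered with the effective length behind the FPKM. Over long genes at 38 it ran from 0.79 to 1.29 times the transcript length, and its part in this readout was not tested. The median readout was 141 bases at 38 somite pairs and 140 at 28 over the long genes. Over shorter genes of like transcript length it was 151 and 154. The 5 genes over 400 kb were lower, at 114 and 111 bases. Their median transcript had 1320 bases, against 2592 over all long genes. Long genes with transcripts under 1000 bases were at 128 and 121, and those of 1000 to under 2000 at 128 and 132. Span and transcript length were not separated for these 5 genes.

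At the 200 kb limit, the 3 long genes just inside spanned 201, 202 and 203 kb and had 2.19, 6.53 and 9.13 FPKM at 38 somite pairs and 4.27, 10.8 and 12.0 at 28. The 3 genes just outside, of 199, 199 and 198 kb, had 0.98, 4.36 and 13.8 FPKM at 38 and 1.49, 7.81 and 14.9 at 28. All 6 were lower at 38. Most of them had transcripts of more than 4000 bases. As deposited, only 12.1% of expressed shorter genes of 4000 to under 9000 bases were higher at 38, and 38.0% of all expressed shorter genes. Whether the shared direction has to do with the limit was not tested.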

How the data were processed

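The deposited values are FPKM per gene and per transcript, per the file headers. Per the series description, the authors aligned untrimmed reads with TopHat to AnoCar2.0, and the submitters' processing notes also name Cufflinks, with no version of either tool. Per the labels' protocols, libraries were made from total RNA with the NuGEN Ovation RNA-Seq kit. The transcript tables also hold the deposited fraction of each transcript in its locus, not used here, and a deposited coverage signal.

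The long genes, the comparisons and the genes named were chosen with earlier results of these data known. Members were found by bundle, span, transcript length and chromosome. Mapped fragments were recovered as the total that makes FPKM times effective length whole; 92.6% of 5075 loci under 100 fragments at 38 somite pairs and 93.1% of 4569 at 28 then fell within 0.02 of a whole number. Of loci listed above 0, only 1.21% and 1.24% had fewer than 10 fragments. Differences are log2(FPKM + 1) at 38 minus 28, which understates low genes. Shorter genes were weighted to the long genes' shares of 4 transcript length classes, split at 1000, 2000 and 4000 bases. Ratios of fragments carry exact Clopper-Pearson 95% intervals, for counting error only. The steps were tested on simulated data.

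The genes named are the 5 longest, the 8 most abundant, the 6 largest fragment ratios each way among 35 genes with 50 fragments in one library and 10 in both, and the 3 on each side of the limit; others were named after their values were seen. No gene was at 0 in one library with 50 fragments in the other. Since 0 identifiers matched the reference table of names, the planned gene lists and markers could not be applied, and at most 2 identifiers are printed each way. No sequence was used. Alternatives covered pseudocount, filters, scaling, span limit, chromosomes and length classes. Calculations ran in Python 3.11.15 with scipy 1.17.1, pandas 2.3.3 and numpy 2.4.6, and plots in matplotlib 3.10.9.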

Additional observations from a re-analysis of the deposited data

How the results depend on the processing

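No paired analysis was possible because there was a single embryo at either stage. Of 135 alternative values, 98 stayed close to the reported value. For counts this meant within 1.5 times, whatever the number of genes tested. The 4 of 39 long genes higher at 38 and the 4 of 108 at 150 kb thus counted as close. For shares, medians and the summed ratio, close meant within a 95% interval (binomial over the 54 or 39 genes, or counting). The scalings changed only the later embryo, so levels and shares of the earlier embryo stayed the same under them by construction. The interval for medians treats genes as replicates and is wide. All 16 alternatives of the median stage difference counted as close, although 3 were positive and the reported value was -0.09. The tally of 98 is therefore no measure of stability. Alternatives on listed zeros, the median fragment ratio, level classes, shared loci and the 100 to under 200 kb class were chosen after seeing the data. Where no cause is given, the cause was not tested.

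The median log2(FPKM + 1) of long genes was 1.21 at 38 somite pairs with a pseudocount of 0.1 FPKM, and 2.85 at both stages with one of 5, by construction. Its distance from shorter genes at 38 and 28 was 0.034 and 0.16 with the limit at 150 kb, 0.12 and 0.26 at 300 kb, -0.98 and -1.20 on numbered chromosomes, 0.24 and 0.25 without length classes, and 0.95 and 1.12 over all 125 models of 200 kb or more outside linkage groups, shared loci included and without length classes. Against genes of 100 to under 200 kb it was -0.72 at 38. The share detected at 38 was 83.3% at 300 kb (12 genes) and 83.3% at an FPKM of 0.5; at an FPKM of 5 it was 25.9% at 38 and 27.8% at 28. At 300 kb, 0% reached 10 FPKM at 38. With shared loci included, 12.0% of long genes reached 10 FPKM at 38 and 17.6% at 28, against 21.2% and 23.0% of shorter genes.

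The distance between long and shorter genes in the stage difference was -0.036 at 150 kb, -0.23 at 300 kb, -0.17 at an FPKM of 5 or more in either library and -0.054 at 1 or more in both. Its other 15 alternatives were all above 0, up to 0.20. Long genes 2-fold higher at 38 and at 28 numbered 1 and 1 of 39 with a pseudocount of 5 (beside 1.17% and 1.37% of all expressed single-transcript genes of the same rule), 7 and 10 of 39 at 1.5-fold (14.1% and 22.6%), 1 and 0 of 39 at 4-fold (1.45% and 1.3%), and 2 and 1 of 11 at 300 kb (8.69% and 9.08%, as at 150 kb). At 150 kb, 4 of 108 long genes were higher at 38 and 5 of 108 at 28. Those higher at 28 numbered 1 of 39 with values at 38 scaled to equal medians of well-covered genes (7.08%). Those higher at 38 numbered 2 of 17 with a filter at 5 FPKM in either library (4.06%), 1 of 32 with one at 1 FPKM in both (2.96%), and 2 of 44 when both values had to be above 0 (3.07%). The summed fragment ratio was 0.94 without the 10 genes with most fragments. Depth limits the low genes most, since a gene with under 10 fragments was usually listed at 0.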
